A study of Mus musculus with 2 samples.

Results

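Neuropeptide genes are described here in 2 single-cell RNA sequencing libraries of the newborn mouse forebrain. The 9 genes, Sst, Npy, Penk, Tac1, Tac2, Pnoc, Cort, Cck and Adcyap1, were taken by name from the 27998 genes that the files list, and all 9 had UMIs in both libraries. A UMI (unique molecular identifier) marks 1 captured RNA molecule. The study asked how the brain develops when STING, a sensor protein of the innate immune pathway, is deleted from the neural lineage. Both libraries came from C57BL/6 mice at postnatal day 0, and the labels name telencephalic tissue whereas the study's methods describe collecting the cerebral cortex. The WT library carries the genotype label WT. The cKO library carries the label STINGf/f;Nestin-Cre, in which the Nestin transgene drives Cre in neural progenitors, so that cells outside the neural lineage are expected to keep the gene. The study's text calls the control sample both STINGfl/fl and wild type. The number of animals behind each library is not given in the sources used here.

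With 1 library for each genotype there is no replicate, so no test was run and every difference below is one between these libraries. All intervals are 95% intervals and cover counting error only, and UMIs of 1 cell are not independent draws from a group. The libraries held 10715 and 9198 barcodes with 69554624 and 67448785 UMIs, and 6601 WT and 5974 cKO cells were kept, at a median of 6552 and 7537 UMIs. They shared 8 barcodes among kept cells. Tmem173, which encodes STING, had 126 UMIs in WT and 18 in cKO. Xist had 10 and 71370 UMIs and the Y-linked Eif2s3y had 4881 and 0, so genotype and the presence of Y transcripts cannot be told apart. Cells were placed into 24 groups by UMIs of marker genes, none of which is a neuropeptide gene, and a group is named -like since no other evidence places it. The 5 projection neuron groups together held 2621 WT and 2869 cKO cells. Cells with markers of striatal neurons were present in both libraries.

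Neuropeptides are made as precursor proteins that convertases and carboxypeptidase E cut in the secretory pathway, and the products are stored in dense-core granules. Released peptides act mostly on G protein-coupled receptors and modulate transmission over longer times than fast transmitters do. In the forebrain they are best known as labels of neuron classes, with somatostatin and neuropeptide Y in interneurons born in the medial ganglionic eminence (MGE), enkephalin and substance P in the striatal output neurons, and cholecystokinin in both cortical projection neurons and interneurons of the caudal ganglionic eminence (CGE).

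The somatostatin family has 2 members in this set. Sst (ENSMUSG00000004366, chr16:23889573-23890958, minus strand) encodes preprosomatostatin, and Cort (ENSMUSG00000028971, chr4:149125034-149126763, minus strand) encodes the cortistatin precursor, whose peptide binds somatostatin receptors. Positions of genes are those of GENCODE M21 on GRCm38. In both genes the mature peptide lies at the end of the coding sequence, so the last 48 bases of each, stop codon included, are shown to let the shared part be seen. Capitals mark bases that match when the ends are laid against each other without gaps at a shift of 3 bases.
Sst: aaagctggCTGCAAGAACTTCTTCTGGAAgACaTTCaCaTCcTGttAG
Cort: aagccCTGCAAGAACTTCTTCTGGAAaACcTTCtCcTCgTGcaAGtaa
Of 45 bases compared, 33 matched (73.3%), and the longest unbroken run was 21 bases, CTGCAAGAACTTCTTCTGGAA. The complete coding sequences have 351 and 330 bases.

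Sst, Cort and Npy (ENSMUSG00000029819, chr6:49822710-49829507, plus strand), the precursor gene of neuropeptide Y, all had their highest level in MGE interneuron-like cells. Sequence before the RefSeq start of each is shown because these genes lead in the same cells, 150 bases for Npy and Cort and 30 bases around the element for Sst. The RefSeq start of Sst lies 114 bases inside the gene as GENCODE M21 draws it, so the Sst stretch is upstream by RefSeq and transcribed by GENCODE. The sequences come from RefSeq on GRCm38.p6 and read 5′ to 3′ on the gene's strand, and capitals mark the cAMP response element TGACGTCA or its core TGACG on either strand.
Sst, chr16:23890874-23890903, minus strand: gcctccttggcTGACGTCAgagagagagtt
Npy, chr6:49822560-49822709, plus strand: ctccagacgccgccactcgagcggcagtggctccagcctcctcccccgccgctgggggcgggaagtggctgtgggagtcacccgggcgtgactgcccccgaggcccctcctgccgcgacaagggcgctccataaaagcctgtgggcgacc
Cort, chr4:149126764-149126913, minus strand: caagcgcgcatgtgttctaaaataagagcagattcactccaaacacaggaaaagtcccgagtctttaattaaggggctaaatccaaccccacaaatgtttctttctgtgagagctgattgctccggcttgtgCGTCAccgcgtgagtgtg
The complete element, which begins 48 bases before the RefSeq start of Sst, was found in 1 of the 7 neuropeptide genes with a promoter entry and in 2.03% of 27025 genes, or 1.79% of 32851 promoter windows of 300 bases. The core, counted also inside a complete element, was found in 5 of the 7 genes, in 23.0% of all genes and in 20.8% of all windows. In Cort the core begins 18 bases before the start, and the Npy window held none. These letters are a description of the windows and were not tied to the measured levels.

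The genes led in 7 different cell groups, as the map of levels shows. Levels are given as CPM, the UMIs of a gene per 1000000 UMIs of the same cells. Sst, Npy and Cort led in MGE interneuron-like cells, Penk and Tac1 in the striatal indirect-like and direct-like neurons, Tac2 in intermediate progenitor-like cells, Pnoc in Cajal-Retzius-like cells, Cck in upper layer-like neurons and Adcyap1 in layer 5-like neurons. The leading group was taken among the 18 groups with at least 50 cells in each library. For Sst, Npy, Penk, Tac1, Tac2 and Pnoc the interval of the leading group lay above that of the next group in both libraries. The share of all genes with such a gap is not given here, so the gap is not read as a trait of the set. For Cort and Adcyap1 the intervals of the highest groups did so in WT and for Cck the order of neighbours differed between libraries.

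**Figure D1:**
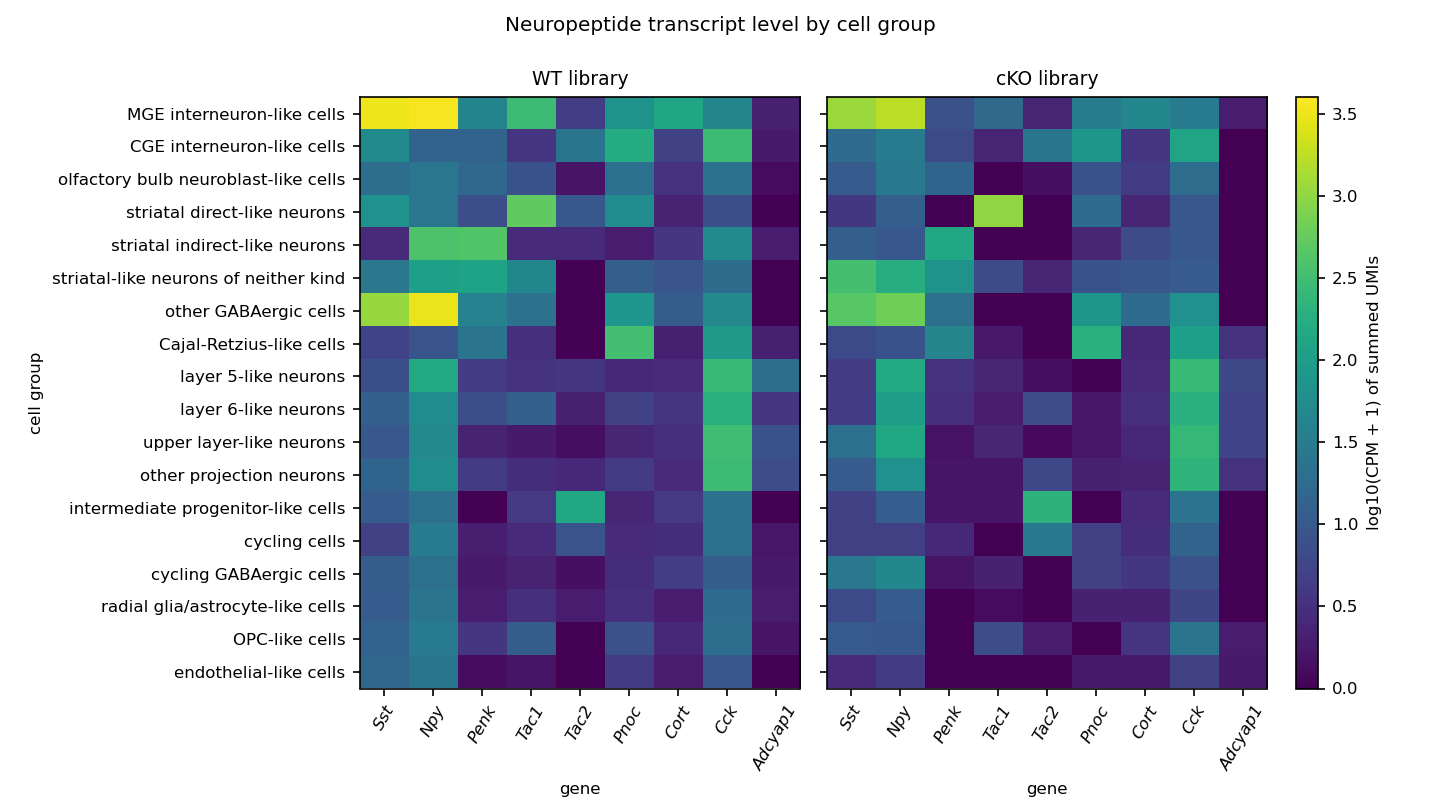
Level of each neuropeptide gene (columns) in 18 cell groups (rows) of the WT and the cKO library, as log10(CPM + 1) of the summed UMIs. Sst and Npy are brightest in MGE interneuron-like cells, Penk and Tac1 in different striatal-like groups, Tac2 in intermediate progenitor-like cells and Cck across the projection neuron groups.

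Over all kept cells Tac2 had a higher CPM in cKO and the other members had a lower one. Most of the 14686 genes with at least 50 UMIs were lower as well, since their median log2 ratio was negative. The log2 ratios of cKO over WT were -1.28 for Penk (-1.46 to -1.11), -0.999 for Sst (-1.06 to -0.94), -0.56 for Tac1 (-0.69 to -0.43) and 0.76 for Tac2 (0.57 to 0.96). The median over the 9 genes was -0.76, against -0.25 over the 14686 genes with at least 50 UMIs. A reduction of at least 2-fold was seen for Penk, 1 of 9 genes, beside 19.6% of all genes, and none of the 9 was at least 2-fold higher, beside 2.68%. The limit of 50 UMIs is on the sum of both libraries, so that a scarce gene may pass it through the library where it is higher, and counts of genes past 2-fold are descriptions here and below. TMM factors, another scaling, would raise each ratio by 0.26 and turn the small Cck ratio of -0.10 to 0.16. The Tac1 ratio was -0.078 without a filter on cells and -1.62 with a stricter one, which also turned the ratios of Npy to 0.049 and of Pnoc to 0.071.

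The ratio within the leading group differed from that over all cells for several genes, as the plot of ratios shows. Tac1 was the gene whose direction differed, lower over all cells and higher in cKO in striatal direct-like neurons.

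**Figure D2:**
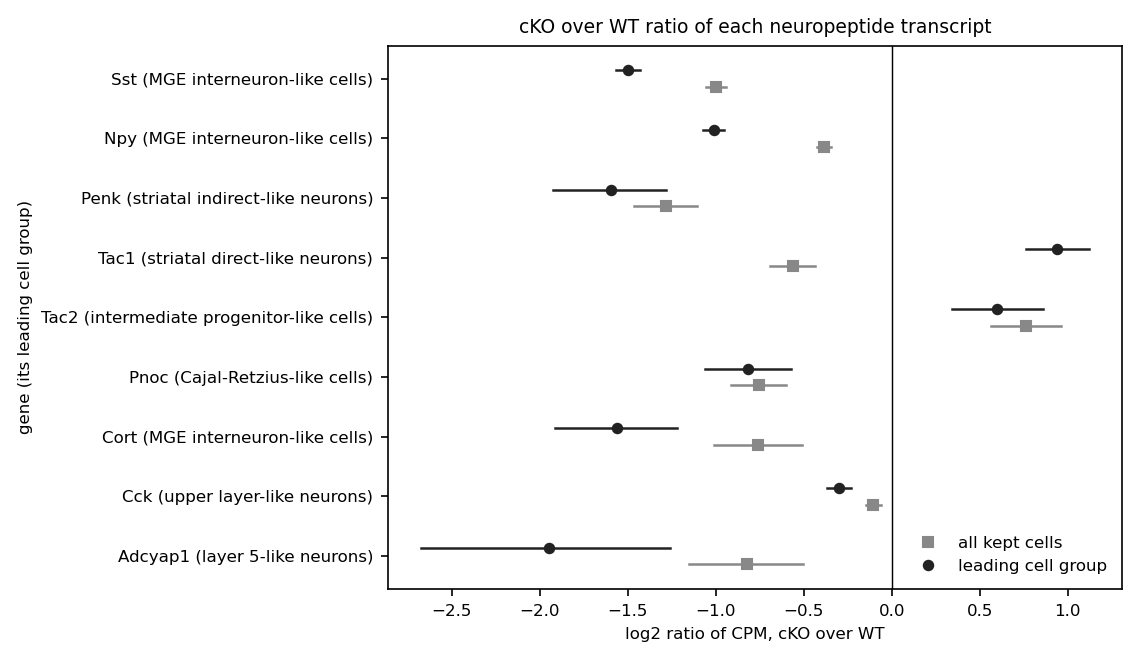
Log2 ratio of CPM, cKO over WT, for each gene over all kept cells (grey squares) and in its leading cell group (black circles), with 95% counting intervals as lines. Tac1 and Tac2 lie right of 0 in their leading groups, and the other 7 genes lie left of it.

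Sst was carried mainly by MGE interneuron-like cells, with 74.7% of the UMIs in WT and 69.4% in cKO. There were 201 of these cells in WT and 288 in cKO. A cell was placed there by UMIs of at least 2 of 7 GABAergic markers and of Lhx6, the MGE lineage factor. It stood there at 3181 CPM in WT (3097 to 3267) against 1126 CPM in the cKO library (1082 to 1171), or -1.50 on the log2 scale of cKO over WT (-1.57 to -1.43). The share of these cells with an Sst UMI was 28.4% and 32.3%. After each cell was thinned to 1000 UMIs, so that depth does not set the share, it was 20.4% and 19.2%. The level was therefore lower in cKO while the thinned shares differed by -1.17 points (-8.80 to 6.19). In vascular and microglial cells, a measure of free RNA, Sst UMIs were found in 7.58% of 277 WT cells and 3.94% of 127 cKO cells at median depths of 11723 and 11633 UMIs, and in 1.83% and 0% after thinning.

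The amount in the cells that held most of the Sst UMIs also differed. Cells with at least 10 UMIs of a gene are called rich here, a limit chosen after the values were seen. Such cells are picked by the gene itself, so whether the amount per cell or the kinds of cells differed was not tested. Sst-rich cells made up 33 of 201 MGE interneuron-like cells in WT (16.4%, 11.6 to 22.3) and 42 of 288 in cKO (14.6%, 10.7 to 19.2). Their median was 106 Sst UMIs in WT and 30.5 in cKO, although their median depth was 10881 and 13164 UMIs. The richest cell held 837 UMIs in WT and 417 in cKO, and without these cells the log2 ratio was -1.53. With a stricter filter on cells (at least 1000 genes and at most 5% mitochondrial UMIs), which left 39 and 48 cells of the group, it was -0.75.

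Npy behaved alike in these cells. It stood at 3563 CPM in WT (3475 to 3654) against 1767 CPM in the cKO library (1712 to 1823), or -1.01 on the log2 scale of cKO over WT (-1.07 to -0.95). An Npy UMI was found in 43.8% and 45.5% of the cells, and in 24.9% and 23.8% after thinning, a difference of -1.10 points (-9.24 to 6.81). Rich cells numbered 33 in WT and 36 in cKO, with a median of 52 and 26.5 Npy UMIs. With the stricter filter the Npy ratio was -0.31.

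Cort was far scarcer, with 230 UMIs in 16 WT cells and 101 UMIs in 42 cKO cells of this group. Its level was 134 and 45.2 CPM, or -1.56 on the log2 scale of cKO over WT (-1.91 to -1.22), but 110 of the WT UMIs came from 1 cell. Without the richest cell of each library the ratio was -0.75 (-1.16 to -0.35). The share of cells with a Cort UMI was 7.96% in WT and 14.6% in cKO, and 1.99% and 3.85% after thinning. The thinned difference was 1.86 points (-1.72 to 5.12) and -1.08 points without doublet removal, so no direction of the share is read.

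The markers of these cells were not at equal levels in the libraries, and the 6 MGE markers summed to 1666 CPM in WT and 2368 in cKO. Lhx6, which the placement used, had 318 and 352 CPM. Sox6, a factor of maturing MGE interneurons, went against the sum, with 136 CPM in WT and 54.2 in cKO. Radial glia and astrocyte markers summed to 192 and 34.9 CPM. A UMI of Lhx8, a factor of ventral telencephalic neurons, was found in 12.9% of WT and 2.78% of cKO cells of the group. Without those cells the log2 ratios were -1.55 for Sst, -1.14 for Npy and -1.88 for Cort. The part of the other markers in the result was not tested.

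Other members of the set were lower than Sst and Npy in MGE interneuron-like cells. A Tac1 UMI was found in 11 WT and 14 cKO cells and a Penk UMI in 17 and 7. Tac1 had 508 UMIs in WT (295 CPM) and 37 in cKO (16.6 CPM), of which 364 WT UMIs lay in 1 cell, and without the richest cells the levels were 85.1 and 14.0 CPM. Penk had 70 and 15 UMIs and Pnoc 116 and 70. Striatal direct markers summed to 122 CPM in WT and 33.2 in cKO in this group, and striatal indirect markers to 50.5 and 6.27. Their part in these differences was not tested. Among all 7573 genes with at least 50 UMIs in this group 11.8% were at least 2-fold lower in cKO and 5.04% higher. Penk and Tac1 reached 50 UMIs in WT alone, so no count or median over the neuropeptide genes is given. Without the richest cell of each library the ratio was -0.99 for Pnoc, and Npy passed 2-fold neither with TMM factors (-0.83) nor with stricter gates (-0.68). Cck had 43.0 and 30.9 CPM.

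Npy was found more often in cells with Sst than in cells without it. In WT an Npy UMI was present in 42 of 57 cells with Sst (73.7%, 60.3 to 84.5) and in 46 of 144 cells without it (31.9%, 24.4 to 40.2), a difference of 41.7 points (26.0 to 54.9). In cKO the shares were 65 of 93 (69.9%) and 66 of 195 (33.8%). After thinning to 2000 UMIs, the difference was 60.8 points in WT (44.6 to 73.0) and 34.8 points in cKO (20.7 to 47.9). These intervals overlap, and the difference between libraries was not tested.

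Rich cells showed the same overlap. Of 33 Sst-rich WT cells, 25 were also Npy-rich (75.8%, 57.7 to 88.9), and of 42 in cKO, 21 were (34.2% to 65.8%). Among cells that were not Sst-rich, 8 of 168 in WT (4.76%) and 15 of 246 in cKO (6.10%) were Npy-rich. The 2 richest cells for Npy, with 1544 UMIs in WT and 961 in cKO, are at the upper right of the plot of single cells.

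**Figure D3:**
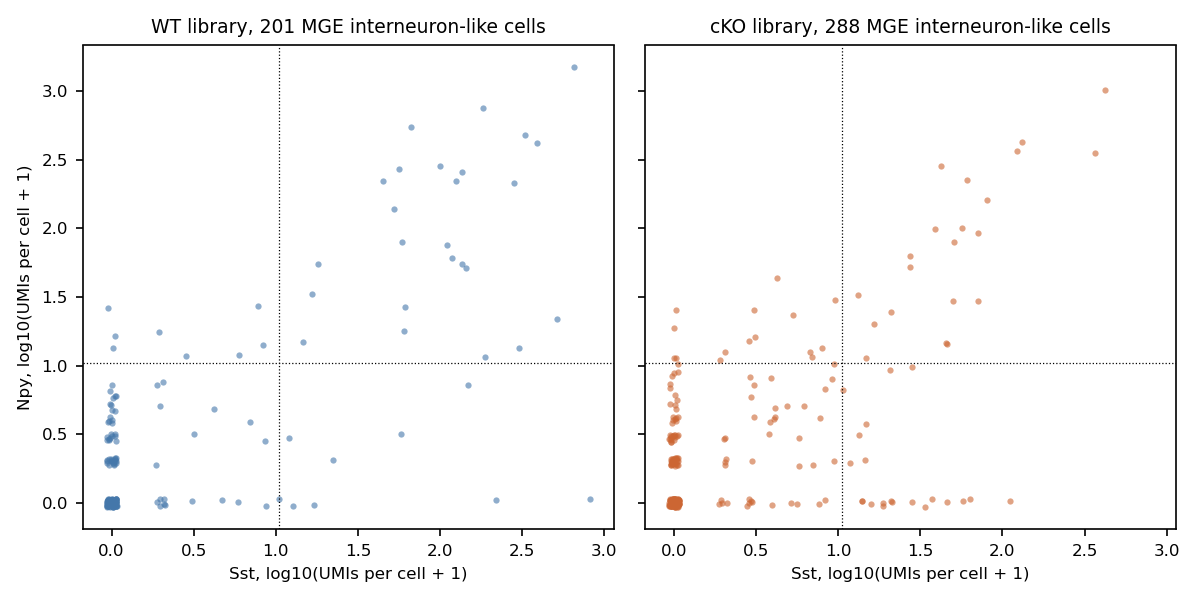
Each point is 1 MGE interneuron-like cell, with Sst on the x axis and Npy on the y axis, both as log10(UMIs per cell + 1) with a small random offset, WT left and cKO right. Dotted lines mark the limit of 10 UMIs, above which 25 WT and 21 cKO cells lie for both genes.

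Cort was found more often in cells with Sst. A Cort UMI was found in 17.5% of WT cells with Sst and 4.17% of those without, and in 25.8% and 9.23% in cKO. Thinned to 2000 UMIs the difference was 5.34 points in WT (-2.27 to 17.6) and 9.93 points in cKO (1.05 to 21.2), so it was not detectable in WT at that depth. Between cells with and without Npy the shares with Cort were 10.2% and 6.19% in WT and 11.5% and 17.2% in cKO, and both intervals of the difference included 0.

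Outside the interneurons, Npy was present in cortical projection neurons. The level in upper layer-like neurons was 49.2 CPM in WT (45.7 to 53.0) against 144 CPM in the cKO library (137 to 151), or 1.55 on the log2 scale of cKO over WT (1.42 to 1.68), opposite to that in MGE interneuron-like cells. Upper layer markers summed to 1259 CPM in WT and 1039 in cKO in these neurons and radial glia and astrocyte markers to 232 and 57.4, and their part in the result was not tested. Layer 6-like neurons had 55.5 and 100.03 CPM (ratio 0.85, 0.54 to 1.17), and layer 5-like neurons had 153 and 160 CPM (ratio 0.06, -0.10 to 0.22). In upper layer-like neurons 1 cKO cell held 587 of 1723 UMIs, and without the richest cell of each library the ratio was 1.16 (1.02 to 1.31). Of the 4 neuropeptide genes with at least 50 UMIs there, Npy and Sst were at least 2-fold higher in cKO, where 4.07% of all genes were, but 139 of the 243 Sst UMIs in cKO came from 1 cell and the Sst ratio without the richest cells was 0.05.

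In WT the unthinned share of these neurons with Npy was at the level of background. An Npy UMI was found in 13.3% of WT and 13.6% of cKO upper layer-like neurons, and in 13.7% and 5.51% of the vascular and microglial cells. After thinning it was found in 2.52% and 3.54% of the neurons and in 1.10% and 0.80% of the vascular and microglial cells. Most of the signal lay instead in few rich neurons. There were 16 of 1432 in WT (1.12%, 0.64 to 1.81) and 24 of 1074 in cKO (2.23%, 1.44 to 3.31), and they held 56.1% and 84.9% of the group's Npy UMIs. Among layer 5-like neurons rich cells were 13 of 191 (6.81%) and 20 of 248 (8.06%).

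Over the 5 projection neuron groups together, 36 WT and 65 cKO cells were Npy-rich, 1.37% (0.96 to 1.90) and 2.27% (1.75 to 2.88). A UMI of Gad1 or Gad2, the genes for GABA synthesis, was found in 3 and 7 of them (8.33% and 10.8%), against 9.83% and 6.70% of the remaining projection neurons. At least 10 Sst UMIs were found in 0 and 3. Their median depth was 14373 and 16147 UMIs, above the 8078 and 8314 of the remaining neurons, and their median doublet score was 0.0345 and 0.0362 against 0.0277 and 0.0339. The groups differed in this. In upper layer-like neurons the score of rich cells was higher, 0.0363 against 0.0269 in WT and 0.0395 against 0.0339 in cKO. In layer 5-like neurons it was lower, 0.0324 against 0.0380 in WT and 0.0288 against 0.0415 in cKO. Depth there was 17701 against 15279 UMIs in WT and 14338 against 16215 in cKO. Placement in these groups limits GABAergic markers, so the Gad shares cannot tell Npy-rich neurons from mixed cells. Of the 87 WT and 45 cKO cells left out for holding both kinds of markers, 3 and 2 were Npy-rich. In WT 1 of those held 714 Npy UMIs.

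**Figure D4:**
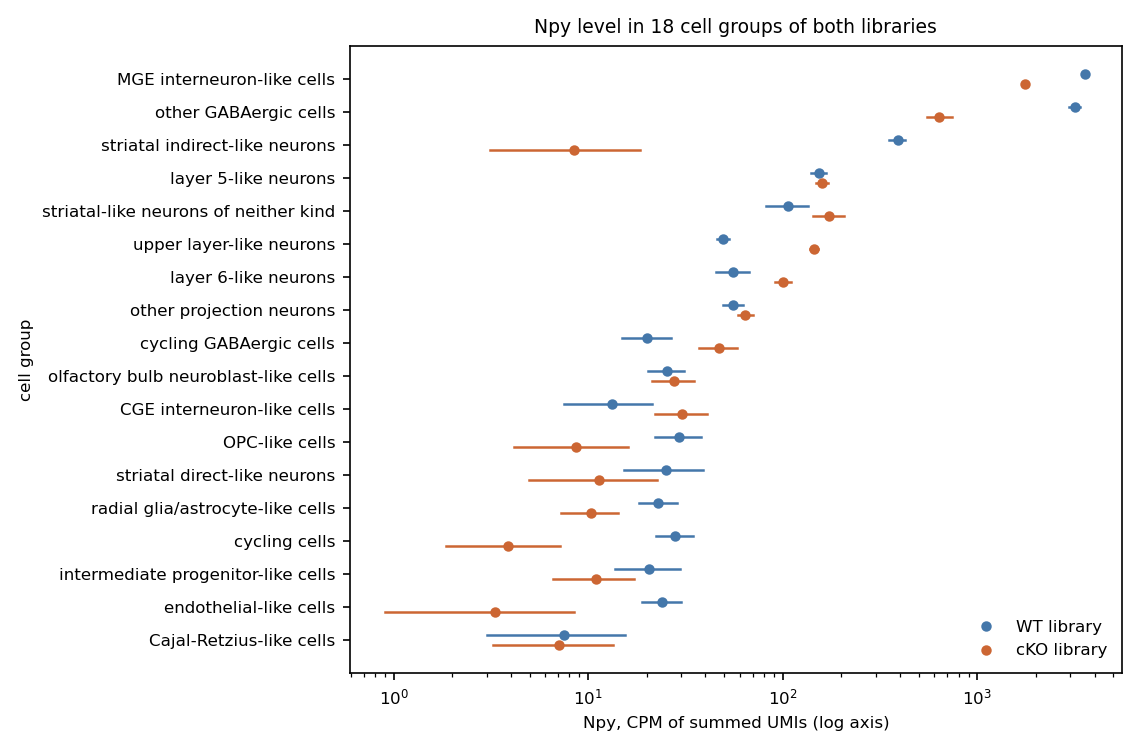
Npy level in each of 18 cell groups, ordered by the mean of both libraries, as CPM on a log axis with 95% Poisson intervals, WT in blue and cKO in orange. cKO lies below WT in MGE interneuron-like and other GABAergic cells and above it in upper layer-like and layer 6-like neurons.

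Other GABAergic cells, which had GABAergic markers but passed no rule for a subclass and had no Lhx6 UMI, held Npy at 3158 CPM in WT and 638 in cKO and Sst at 1107 and 463. They numbered 85 and 97. A single WT cell held 679 of the 913 Npy UMIs there, and a single cKO cell held 140 beside 46 in the others. Without the richest cell of each library the Npy levels were 830 and 160 CPM (log2 ratio -2.37, -2.86 to -1.91). MGE markers other than Lhx6 were present, the list summing to 567 and 1177 CPM, while striatal direct markers summed to 706 and 120 and radial glia and astrocyte markers to 2618 and 528. Their part in these differences was not tested. In striatal indirect-like neurons 390 of 435 WT Npy UMIs lay in 1 cell, and cKO had 6 UMIs.

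The opioid precursors came next. Penk (ENSMUSG00000045573, chr4:4133531-4138819, minus strand) encodes proenkephalin, the classic peptide precursor of striatal neurons of the indirect pathway. In the annotation an uncharacterised gene overlaps it on the opposite strand. In the 142 WT and 80 cKO striatal indirect-like neurons it had 423 CPM in WT (386 to 463) against 140 CPM in cKO (114 to 170), or -1.60 on the log2 scale of cKO over WT (-1.92 to -1.28). The share of cells with a Penk UMI was 43.0% and 26.2%, and 21.1% and 3.75% after thinning, a difference of -17.4 points (-25.6 to -8.03). Rich cells were 12 of 142 (8.45%, 4.44 to 14.3) and 3 of 80 (3.75%, 0.78 to 10.6), with intervals that overlap. Level and share were lower in cKO. The ratio was -0.80 with stricter gates, which left 61 WT and 28 cKO cells. The summed markers of the indirect kind stood at 968 CPM in WT and 522 in cKO, those of striatal neurons in general at 2434 and 2915, and those of radial glia and astrocytes at 159 and 835, and their part in the Penk result was not tested. In that group 9.09% of all genes were at least 2-fold lower and 4.89% higher. Npy and Cck passed the limit of 50 UMIs through WT alone, each with 6 UMIs in cKO, so no count over the neuropeptide genes is given.

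Outside striatal-like neurons Penk stood at 40.7 CPM in WT and 6.72 in cKO in MGE interneuron-like cells. In other GABAergic cells it stood at 38.0 and 20.6 CPM. It was also found in Cajal-Retzius-like cells, at 23.5 CPM in WT and 43.2 in cKO (ratio 0.88, 0.14 to 1.66), which is 22 and 55 UMIs. Pnoc was present in 8 of 9 WT cells with Penk and in 24 of 52 without it, and in 10 of 14 and 27 of 61 in cKO, where the interval of the difference included 0.

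Pnoc (ENSMUSG00000045731, chr14:65400673-65425472, minus strand) encodes prepronociceptin, the precursor of the peptide that binds the opioid-related receptor Oprl1. It was highest in Cajal-Retzius-like cells, the reelin-producing neurons of layer 1, of which there were 61 in WT and 75 in cKO. Its level was 337 CPM in WT (301 to 376) against 191 CPM in cKO (168 to 217), or -0.82 on the log2 scale of cKO over WT (-1.06 to -0.57). A Pnoc UMI was found in 52.5% and 49.3% of them, and in 24.6% and 14.7% after thinning. The thinned difference was -9.92 points (-24.5 to 4.35), and it was 0.55 points at 2000 UMIs, so no direction of the share is read. Rich cells were 17 (27.9%, 17.1 to 40.8) and 11 (14.7%, 7.56 to 24.7). Cajal-Retzius markers summed to 3628 CPM in WT and 3903 in cKO, and those of radial glia and astrocytes to 260 and 25.9, whose part in the result was not tested. Of 3 neuropeptide genes compared in this group none was 2-fold lower, against 5.17% of all genes, and none 2-fold higher, against 2.90%.

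The same gene was second highest in CGE interneuron-like cells, at 170 CPM in WT and 81.1 in cKO (ratio -1.07, -1.41 to -0.74). There it was joined by Cck at 290 and 124 CPM (ratio -1.23, -1.50 to -0.97). These intervals overlap with each other. CGE markers summed to 1202 CPM in WT and 1063 in cKO in these cells, and Cajal-Retzius markers to 151 and 90.0. Markers of radial glia and astrocytes summed to 523 and 751, and those of olfactory bulb-type neuroblasts to 1333 and 900. The part of these markers in the results was not tested. Among all genes there 10.3% were at least 2-fold lower and 6.04% higher. Sst had 62 and 25 UMIs in these cells and Npy 16 and 44, so that neither reached 50 in both libraries. Without the richest cells the Npy ratio there was 0.79 (-0.18 to 1.82).

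Pnoc and Cck marked overlapping CGE interneuron-like cells. A Cck UMI was present in 32 of 66 WT cells with Pnoc (48.5%) and in 21 of 128 without it (16.4%), a difference of 32.1 points (17.5 to 46.0). In cKO it was present in 18 of 67 (26.9%) and 20 of 176 (11.4%), a difference of 15.5 points (3.93 to 28.5). After thinning to 2000 UMIs the differences were 21.0 points (5.20 to 39.0) and 13.7 points (1.25 to 30.9). The overlap was thus present in both libraries.

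The tachykinin genes did not share a site. Tac1 (ENSMUSG00000061762, chr6:7554879-7565834, plus strand) encodes the precursor of substance P, which is typical of striatal neurons of the direct pathway. In the 82 WT and 58 cKO striatal direct-like neurons it had 525 CPM in WT (476 to 578) against 1009 CPM in cKO (936 to 1086), or 0.94 on the log2 scale of cKO over WT (0.76 to 1.12). The share of cells with a UMI was 30.5% and 31.0%, and 9.76% and 20.7% after thinning. Rich cells were 12 in each library, with a median of 23.5 and 45 UMIs and a median depth of 14878 and 20935. The thinned difference was 10.9 points (-1.87 to 24.7). Striatal markers summed to 1994 CPM in WT and 2925 in cKO, those of the direct kind to 1363 and 1270 and those of radial glia and astrocytes to 533 and 899, and their part in the Tac1 result was not tested. Among all genes there 4.03% were 2-fold higher and 5.93% lower. Sst had 52 WT and 2 cKO UMIs in these neurons and Pnoc 44 and 12, so both passed the limit of 50 UMIs through WT.

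Few striatal-like cells held both Tac1 and Penk, in groups that were split by other markers of the direct and indirect kinds. Of the 82 WT direct-like neurons, 24 had Tac1 alone, 1 Penk alone and 1 both, and of the 142 indirect-like neurons 1 had Tac1 alone, 60 Penk alone and 1 both. In cKO 18 direct-like neurons had Tac1 alone, 21 indirect-like neurons had Penk alone, and 0 of either kind had both. With so few Penk cells among direct-like and Tac1 cells among indirect-like neurons, neither overlap nor exclusion within these groups is read. Among striatal-like neurons that the markers could not place, 1 of 99 WT cells and 0 of 100 cKO cells had both. Tac1 alone was found in 4 and 2 of these and Penk alone in 16 and 11, too few to read an overlap.

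Tac2 (ENSMUSG00000025400, chr10:127724478-127731768, plus strand) encodes the neurokinin B precursor. It was the gene that was higher in cKO both over all cells and in its leading group, intermediate progenitor-like cells, named by markers of the precursors of cortical projection neurons. Cells with cycling markers form a group of their own, and cycling markers summed to 50.6 and 45.1 CPM in the intermediate progenitor-like cells. There it had 193 UMIs in 22 of 210 WT cells (141 CPM, 122 to 163) and 370 UMIs in 30 of 199 cKO cells (214 CPM, 193 to 237), or 0.60 on the log2 scale of cKO over WT (0.34 to 0.86). After thinning the share of cells was 5.26% and 6.53%, a difference of 1.27 points (-3.70 to 6.37). Rich cells were 8 (3.81%, 1.66 to 7.37) and 13 (6.53%, 3.52 to 10.9). Neither of the 2 neuropeptide genes compared in the group passed 2-fold, against 9.47% of genes lower and 5.51% higher.

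Free RNA was not seen for Tac2, with 0 of 277 and 0 of 127 vascular and microglial cells holding a UMI, which by a count of 3 allows up to 0.627 and 1.45 CPM. Cycling cells that were not placed as GABAergic were the next site in cKO, at 27.6 CPM against 7.34 CPM in WT, with 30 of 71 cKO UMIs in 1 cell. CGE interneuron-like cells had 23.9 CPM in WT and 24.1 in cKO.

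Cck (ENSMUSG00000032532, chr9:121489824-121495694, minus strand), the cholecystokinin precursor gene, was the most widely spread of the set. Its levels in the projection neuron groups were 308 and 250 CPM in upper layer-like, 265 and 275 CPM in layer 5-like, 294 and 220 CPM in other and 183 and 189 CPM in layer 6-like projection neurons. Without the richest cell of each library the layer 6-like levels were 109 and 171 CPM, since 1 WT cell held 144 UMIs. Upper layer-like neurons were above layer 5-like neurons in WT and below them in cKO. Subplate-like neurons, the early-born cells under the cortical plate, were higher still at 473 and 300.2 CPM, but numbered 38 and 28. The log2 ratio in upper layer-like neurons was -0.30 (-0.37 to -0.23), where the median of all 11041 genes compared was -0.17, and it turned to 0.31 with the stricter filter on cells. A Cck UMI was found in 48.3% and 44.1% of these cells, and in 16.4% and 14.1% after thinning, against 2.20% and 0.80% of vascular and microglial cells. None of the 4 neuropeptide genes compared there was 2-fold lower, while 17.9% of all genes were.

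Adcyap1 (ENSMUSG00000024256, chr17:93199017-93206537, plus strand) encodes PACAP, an activator of adenylyl cyclase. It was the rarest transcript of the set, with 228 UMIs in WT and 127 in cKO and at most 6 in a cell. In layer 5-like neurons it had 64 UMIs in 36 of 191 WT cells (19.3 CPM, 14.8 to 24.6) and 25 UMIs in 17 of 248 cKO cells (5.01 CPM, 3.24 to 7.39), or -1.94 on the log2 scale of cKO over WT (-2.67 to -1.26). Among all genes there 10.9% were 2-fold lower and 2.62% higher, and Adcyap1 reached 50 UMIs in WT alone. Radial glia and astrocyte markers summed to 491 CPM in WT and 172 in cKO in these neurons and layer 5 markers to 708 and 550, and their part in the result was not tested. Thinned to 1000 UMIs the share was 1.05% and 0%, too few cells to compare.

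Upper layer-like neurons had Adcyap1 at 7.04 and 4.26 CPM. Cck was present in 23 of 36 WT layer 5-like neurons with Adcyap1 (63.9%) and in 95 of 155 without it (61.3%), and in 64.7% and 54.1% in cKO. Both intervals of the difference included 0.

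The 9 genes differed in how few cells held their transcripts. The richest 1% of kept cells held 92.8% of Sst UMIs in WT and 87.5% in cKO, 87.0% and 78.0% for Npy, and 97.6% and 95.2% for Tac2. That 1% is 67 WT and 60 cKO cells. Sst had a UMI in 555 and 352 cells but Tac2 in 75 and 87, so a high share for Tac2 is largely set by its scarcity. For Pnoc the richest 1% held 66.6% and 67.4%. Cck was the exception, with 32.2% and 30.5%. A single richest cell held 110 of the 360 Cort UMIs and 364 of the 1225 Tac1 UMIs in WT.

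**Figure D5:**
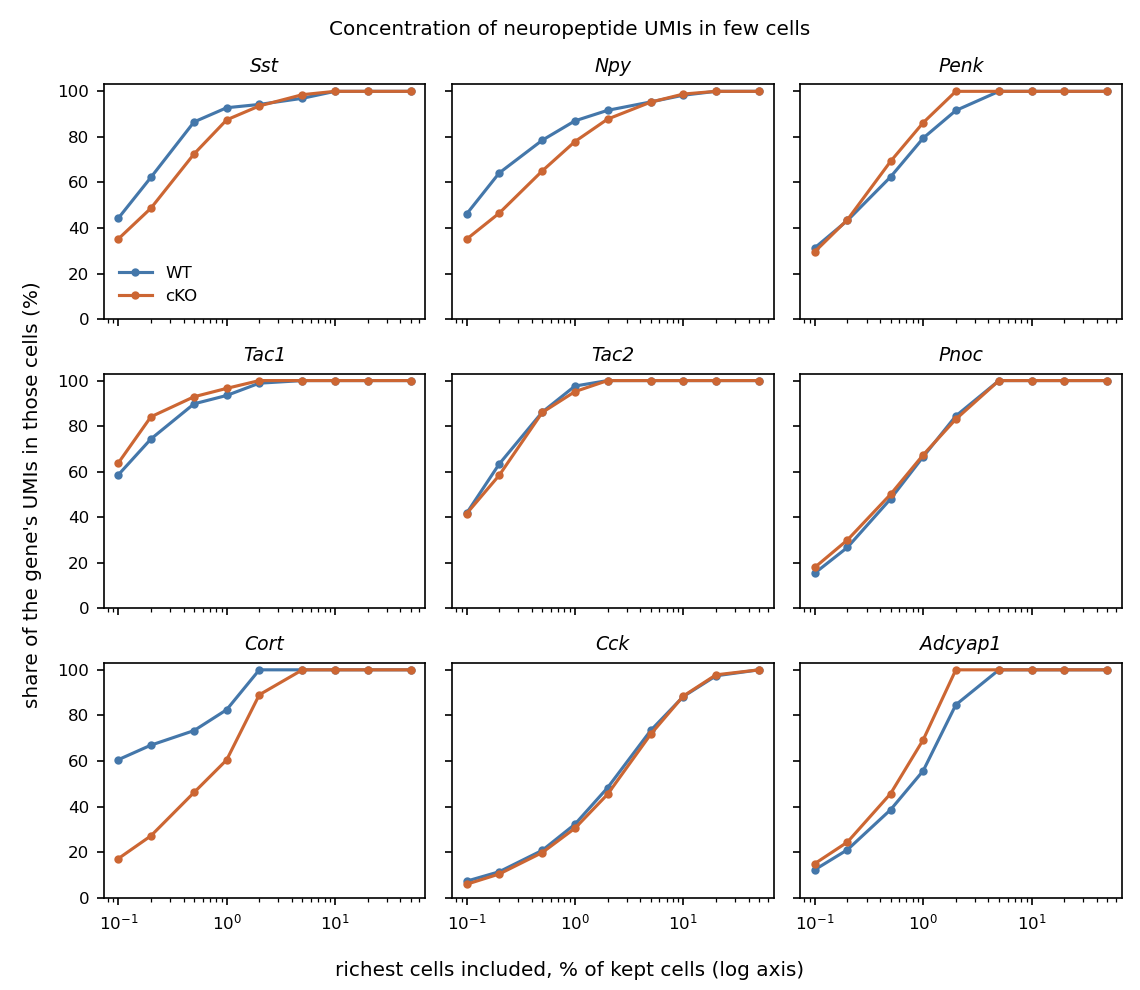
Share of each gene's UMIs (y axis, percent) held by the richest cells, from 0.1% to 50% of kept cells (x axis, log), WT in blue and cKO in orange. Sst, Tac1 and Tac2 pass 80% at 1% of cells in both libraries, whereas Cck stays near 31%.

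Across 22 cell groups in each library (44 points, log2 of CPM + 10, points of 1 library sharing its depth and free RNA) the levels of Sst and Cort had a Pearson r of 0.86 and those of Sst and Npy one of 0.81. The nearest patterns were sought among 12477 other genes with at least 200 UMIs. The marker genes used to place cells, Lhx6 among them, were left out of this search. Most like Sst was the pattern of Neb (r 0.82), most like Npy that of Cacng3 (0.73), most like Cort that of Lhx8 (0.84) and most like Penk that of P2ry1 (0.76). For Tac1 it was Col25a1 (0.79), for Tac2 Serping1 (0.70), for Pnoc Ptchd4 (0.84), for Cck Kcnj3 (0.89) and for Adcyap1 Nwd2 (0.84). Nwd2 was also among the 3 nearest to Cck (0.82), and Cck and Adcyap1 had an r of 0.69. These values describe the groups and carry no test. They do not speak of single cells, since MGE interneuron-like cells with an Lhx8 UMI had Cort at 4.61 CPM in WT and 0 in cKO, below the 177 and 48.2 CPM of those without.

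The receptors of these peptides were counted over all kept cells. Of 20 receptor genes 12 had at least 50 UMIs in the 2 libraries together, of which 4 (Npy1r, Oprm1, Oprk1 and Tacr1) were at least 2-fold lower and 1 (Vipr1, with 27 and 118 UMIs) higher over all cells, beside 19.6% and 2.68% of all genes. Their median log2 ratio was -0.52, beside -0.25 over all genes. Sstr2, a somatostatin receptor, had 1768 and 2299 UMIs and was highest in intermediate progenitor-like cells. Npy1r, a neuropeptide Y receptor, had 487 and 120 UMIs, a ratio of -2.001 (-2.30 to -1.71). Adcyap1r1, the PACAP receptor, had 1313 and 1609 UMIs and was highest in radial glia/astrocyte-like cells.

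The 12 genes for peptide processing and granules were all measured. None was 2-fold lower or higher, beside 19.6% and 2.68% of all genes, and their median ratio was 0.18, on the other side of 0 from that of all genes. Cpe, carboxypeptidase E, had 27446 and 29851 UMIs, and Pcsk1n, which encodes an inhibitor of a convertase, had 25833 and 29575 (ratio 0.21, 0.19 to 0.24). In MGE interneuron-like cells the granule protein gene Scg2 had 253 UMIs in WT and 87 in cKO, or 147 and 39.0 CPM.

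Of 21 other neuropeptide genes 12 had at least 50 UMIs, with 6 (Vip, Crh, Trh, Gal, Cartpt and Pomc) at least 2-fold lower, 1 higher (again beside 19.6% and 2.68%) and a median ratio of -0.81, beside -0.25 over all genes. Nts, the neurotensin precursor, was the most abundant with 3228 and 5840 UMIs (ratio 0.87, 0.81 to 0.94), and layer 5-like neurons held 867 and 3327 of them. Grp, the gastrin-releasing peptide gene, had 2380 and 2805. Nmb, the neuromedin B gene, had 420 and 935 UMIs and was the gene above 2-fold.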

How the data were processed

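The labels assign 1 library to WT and 1 to cKO. For each the authors deposited a gene by barcode table of raw UMI counts, with no normalization, whose header gives software version 3.0.1. The submitters' processing notes name STAR, Cell Ranger 2, Seurat and mm9 without roles. The files hold no coordinates. Counting with or without strand is not given in the sources used here. The smallest barcode had 502 UMIs, so that shallower barcodes had been left out. Other tables that repeat these counts were not used.

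The members and lists were chosen with earlier results of these data known. Cells needed 500 genes and at most 10% mitochondrial UMIs, a limit that 35.9% of WT and 32.9% of cKO barcodes exceeded. Scrublet (scanpy 1.11.5) doublets were removed at a score above 0.25 (165 WT and 106 cKO cells), because its automatic threshold marked 165 and 0. Each cell was placed, in a fixed order, by how many distinct markers of a list it held and, for some groups, a required gene (Lhx6 for MGE), and 327 WT and 407 cKO cells matched no list while 87 and 45 held both GABAergic and projection neuron markers. UMIs were summed per group and library. Levels carry exact Poisson intervals, ratios the exact conditional binomial interval and shares the Clopper-Pearson interval. A difference of shares has an interval combined from both. Thinning drew 1000 (or 2000 for pairs of genes) UMIs from each cell and left out shallower cells, at most 23 of a named group at 1000 UMIs, and of the MGE interneuron-like cells 2 cKO cells at 1000 and 6 WT and 12 cKO cells at 2000 UMIs. The endothelial-like, microglia-like and mural-like cells served as background.

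Named genes were the 9 members, the most abundant genes of 3 lists (receptors, processing and granule, other neuropeptides) and the genes nearest in pattern by Pearson r. Scg2, the list genes past 2-fold and the marker genes named were chosen after their values were seen, as was the limit of 10 UMIs for rich cells. Of 27998 gene identifiers 27645 were in GENCODE M21, and RefSeq promoters were matched for 7 of 9 members. Alternatives were no filter and a stricter filter on cells, no doublet removal, stricter gates, TMM factors from edgeR 4.0.16 (R 4.3.3), CPM without mitochondrial, ribosomal and haemoglobin genes, CPM averaged over cells and other thinning depths. Added after seeing the data were the removal of the highest 5% of doublet scores, of the richest cell and of cells with Lhx8. One marker gene is not reported here.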

Additional observations from a re-analysis of the deposited data

Results flagged for a closer look

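For 4 genes the ratio of cKO over WT had opposite signs in different cell groups, with counting intervals that exclude 0 on each side. The share of all genes with such signs is not given here, so the count is not read as a trait of these genes. Some of the ratios rest on few UMIs in 1 of the libraries. Whether the groups differ was not tested, because there is 1 library for each genotype. For Npy the log2 ratio was 1.55 in upper layer-like neurons and -5.52 in striatal indirect-like neurons, 7.07 apart, but 390 of the 435 WT UMIs of the latter lay in 1 cell, and without the richest cells the ratios were 1.16 and -2.54. For Tac1 it was 0.94 in striatal direct-like neurons and -4.15 in MGE interneuron-like cells, 5.09 apart, and without the richest cells 1.06 and -2.61. For Penk it was 0.88 in Cajal-Retzius-like cells and -2.60 in MGE interneuron-like cells, 3.47 apart, on 22 and 55 UMIs in the former and 70 and 15 in the latter. Striatal direct and indirect markers were also lower in cKO in MGE interneuron-like cells, as given above, and their part in the Tac1 and Penk ratios was not tested. For Sst the log2 ratio was 3.73 in striatal-like neurons of neither kind and -4.51 in striatal direct-like neurons, 8.24 apart. In the former 1 cKO cell held 131 of 245 UMIs, and without the richest cells the ratio was 3.17. The latter stood at 65.2 CPM in WT and 2.85 in cKO, on the few UMIs given with Tac1 above.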

How the results depend on the processing

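Of the recomputed values that answer a comparison, 73 of 95 stayed within the counting interval of the value reported, as did 141 of 177 others. Log2 ratios of cKO over WT that left it are given here for the leading groups in full and over all cells for the larger moves, and for those whose construction does not show it the cause was not tested. The stricter filter (1000 genes, 5% mitochondrial UMIs) kept 1636 WT and 1319 cKO cells, of which 39 and 48 were MGE interneuron-like, and gave -0.75 for Sst, -0.31 for Npy and -0.47 for Cort there, -0.36 for Pnoc in Cajal-Retzius-like cells and, with the direction changed, 0.31 for Cck in upper layer-like neurons and 0.049 for Npy and 0.071 for Pnoc over all cells. Over all cells it also gave -0.34 for Sst, -0.92 for Penk, -1.62 for Tac1, -0.30 for Cort and -2.31 for Adcyap1. For Penk, Tac1 and Adcyap1 the leading-group ratio was not recomputed with this filter. It left 21 WT and 3 cKO striatal indirect-like, 6 and 7 striatal direct-like and 27 and 25 layer 5-like neurons. Stricter gates gave -1.28 for Sst, -0.68 for Npy, -0.80 for Penk, 1.16 for Tac1 and 0.16 for Tac2 in their leading groups. Without a filter Penk was -1.03 and Tac2 0.96 there, and over all cells Sst was -0.74 and Tac1 -0.078. TMM factors gave -1.32 for Sst and -0.83 for Npy in MGE interneuron-like cells, -0.13 for Cck in upper layer-like neurons and, with the direction changed, 0.16 for Cck over all cells. CPM averaged over cells gave -1.37 for Sst, -0.67 for Cort and 0.67 for Tac1 there, and over all cells -0.67 for Sst, -1.03 for Tac1 and -0.10 for Cort. Without the richest cells Cort was -0.75 and over all cells -0.29, and without cells with Lhx8 Npy was -1.14. The WT difference in Npy share between cells with and without Sst was 58.3 points at 2 UMIs and 60.8 thinned to 2000. The difference in the share of Cajal-Retzius-like cells with Pnoc, -9.92 points, was 0.55 thinned to 2000 UMIs and 9.85 with the stricter filter, and that for Cort in MGE interneuron-like cells, 1.86 points, was -1.08 without doublet removal. With stricter gates the striatal direct-like (45 and 22 cells) and indirect-like (61 and 28) groups no longer had 50 cells in each library, and Penk led in Cajal-Retzius-like cells, Tac1 in other GABAergic cells and Cck in other projection neurons. Cck also led there without a filter, and in layer 5-like neurons by thinned share. No paired analysis was possible because each genotype has 1 library.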
